A study of Mus musculus with 2 samples.

Results

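The RNA levels of 9 genes that code for subunits of canonical Polycomb repressive complex 1 (PRC1) were compared between untreated mouse neural stem cells and the same cells treated with homocysteine thiolactone (HTL). The genes were the chromobox genes Cbx2, Cbx6, Cbx7 and Cbx8, the polyhomeotic genes Phc1, Phc2 and Phc3, and the RING genes Ring1 and Rnf2. They were chosen by symbol, with earlier results of these data known, and all 9 were found among the 16803 genes of the deposited table. The cells were NE4C, an established line of neuroectodermal stem cells from embryonic mouse forebrain that lacks the tumour suppressor Trp53. The control was the normal culture, and the other culture received HTL, the thioester ring form of homocysteine, which reacts with lysines in proteins. Both cultures grew in Eagle MEM on poly-L-lysine, and neither the dose of HTL nor the time of exposure is given in the labels. Each condition was 1 RNA-seq library, with 10350665 reads assigned to genes in the control and 9102076 in the HTL library. No difference below therefore has a replicate check: the tests compare these 2 libraries, not the conditions, and every interval covers counting error only. A lower level in such bulk RNA can come from fewer cells of a type or from less RNA per cell, which cannot be told apart.

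PRC1 is a chromatin complex that places ubiquitin on histone H2A and keeps developmental genes silent. Its catalytic core pairs a RING protein, Ring1 or Rnf2, with a Pcgf protein. In the canonical form a chromobox protein binds trimethylated lysine 27 of histone H3, the mark written by Polycomb repressive complex 2 (PRC2), and a polyhomeotic protein links complexes to each other through its SAM domain. In stem cells and their progeny the chromobox subunit is known to be exchanged during differentiation, with Cbx7 the main one in pluripotent cells.

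Of the 9 genes, Cbx6, Cbx7 and Ring1 were called lower after HTL treatment, by 2.37 to 2.83 times on the reads assigned to each (the call of Cbx6 was lost with reads of an overlapping gene added), Cbx2 and Phc1 were lower by less, Rnf2 was higher, and Cbx8, Phc2 and Phc3 did not pass the test. The promoters of the 3 genes with the largest differences, and of Rnf2, which differed in the other direction, are given here so that these genes can be located and their sequence compared. Each is the 250 bases before the annotated start in RefSeq (GRCm38.p6), written 5′ to 3′ on the strand of the gene. This build differs from mm9, in which gene spans are given further on. Capitals mark the E-box CACGTG, the pentamer of the CCAAT box, or TGACG, the core of the cAMP response element, all searched on both strands.

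Cbx6, chr15:79834334-79834583, minus strand: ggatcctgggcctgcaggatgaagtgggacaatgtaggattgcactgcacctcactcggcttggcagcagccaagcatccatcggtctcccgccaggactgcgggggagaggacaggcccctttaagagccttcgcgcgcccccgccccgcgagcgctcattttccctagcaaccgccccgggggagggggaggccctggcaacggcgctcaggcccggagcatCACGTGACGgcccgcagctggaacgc
Cbx7, chr15:79932647-79932896, minus strand: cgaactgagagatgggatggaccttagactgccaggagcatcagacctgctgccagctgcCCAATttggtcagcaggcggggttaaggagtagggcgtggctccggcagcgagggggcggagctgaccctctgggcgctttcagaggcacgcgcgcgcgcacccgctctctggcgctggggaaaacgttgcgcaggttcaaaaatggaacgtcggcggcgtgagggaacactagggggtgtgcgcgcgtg
Ring1, chr17:34024681-34024930, minus strand: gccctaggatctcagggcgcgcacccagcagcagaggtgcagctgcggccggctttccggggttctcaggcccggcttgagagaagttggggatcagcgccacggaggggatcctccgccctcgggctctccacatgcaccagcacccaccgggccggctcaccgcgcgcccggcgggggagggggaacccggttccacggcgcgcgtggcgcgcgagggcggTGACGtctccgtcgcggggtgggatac
Rnf2, chr1:151500992-151501241, minus strand: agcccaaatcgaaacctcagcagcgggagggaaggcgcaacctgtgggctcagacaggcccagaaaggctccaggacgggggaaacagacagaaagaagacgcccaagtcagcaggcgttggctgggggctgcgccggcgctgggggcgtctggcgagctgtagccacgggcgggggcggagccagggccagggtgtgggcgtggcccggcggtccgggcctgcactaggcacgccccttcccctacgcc

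The Cbx6 promoter held an E-box that starts 26 bases before the start and overlaps the cAMP response core. Ring1 held the core alone, which starts 27 bases before the start, Cbx7 held a CCAAT box, and Rnf2 held none of these 3 motifs. Over all 32851 promoters of that length, 6.02% held the E-box, 33.8% the CCAAT box and 17.8% the cAMP response core. Of the 10 annotated promoters of the PRC1 genes, 4 held the E-box, 4 the CCAAT box and 5 the cAMP response core. None of these 3 motifs was present in all of Cbx6, Cbx7 and Ring1. The GC box GGGCGG, on either strand, was present in all 4 promoters, in 8 of these 10 and in 32.7% of all promoters. All 4 promoters were rich in G and C, from 64.8% in Cbx7 to 73.6% in Ring1, against a median of 52.4% over all promoters. The number of CpG dinucleotides ran from 20 in Cbx6 and in Rnf2 to 30 in Ring1, against a median of 6. A motif match describes these letters only and is not evidence that a factor binds there. RefSeq promoters were found for 8 of the 9 genes, the exception being Cbx2.

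Differences were measured from the reads assigned to a gene, scaled to the library total. A gene was called when the two-sided exact binomial test gave an adjusted p of at most 0.001 and the absolute log2 ratio of HTL treatment to control was at least 1, with adjustment over 13442 genes. Of the 9 genes, 3 were called, against 10.8% of all genes tested. All 3 were lower, a direction in which 7.98% of all genes were called, and none was higher, against 2.81%. At the same adjusted p without a cutoff on the ratio, 6 of the 9 passed, against 38.6% of all genes. The median log2 ratio of the 9 genes was -0.55, and that of all genes tested was -0.14, with quartiles of -0.60 and 0.28. With 9 genes chosen by name, these counts describe the group and were not tested as a set.

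The first comparison asked whether the chromobox genes, which code for the subunits that read the histone mark, differed between the libraries. Cbx7 had 937 control reads and 348 HTL reads. Its log2 ratio was -1.24 (95% interval -1.43 to -1.06), a level 2.37-fold lower (exact binomial test, adjusted p = 3.96e-46). Cbx6, another chromobox gene expressed in embryonic stem cells, had 634 and 197. Its log2 ratio was -1.50 (-1.74 to -1.27), 2.83-fold lower and the lowest of the 9 when its own reads alone were counted (exact binomial test, adjusted p = 1.71e-41). Both genes were called, and among all genes tested their ratios stood at percentiles 7.86 and 5.12. Neither call held with edgeR's exact test at an assumed biological coefficient of variation of 0.2.

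Cbx2, whose protein compacts chromatin and which is known for its part in sex determination and skeletal patterning, had 964 control reads and 481 HTL reads. Its log2 ratio of -0.82 (-0.98 to -0.66) passed the test on p (exact binomial test, adjusted p = 3.16e-24) but not the cutoff on the ratio. Cbx2 lost this pass with edgeR's exact test at an assumed biological coefficient of variation of 0.1. Cbx8, a chromobox protein studied mostly for silencing the Cdkn2a locus in fibroblasts, had 27 and 31. Its log2 ratio was 0.38 with an interval from -0.41 to 1.19 (exact binomial test, adjusted p = 0.452). No difference in Cbx8 was detected, and its interval reached past the cutoff of 1 on the higher side only.

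The Cbx6 value depended on how reads of a neighbour were counted. In mm9 the gene lies on the minus strand at chr15:79654326-79665118, and 1175 of its 6290 exonic bases are shared with Npcd, a gene annotated on the same strand. The deposited Cbx6 counts, 633.56 and 196.52, were fractional, as were 21.8% of control and 20.2% of HTL values over all genes, those of Phc1 and Phc3 among them. Reads of Npcd numbered 330 and 231, a log2 ratio of -0.33 (-0.58 to -0.08). With the reads of both genes added together, 964 and 428, the log2 ratio was -0.99 (-1.15 to -0.82), just short of the cutoff. Nptxr, with 51 and 135 reads, was not found to share exonic bases with Cbx6. With Nptxr reads added as well, the log2 ratio was -0.66 (-0.82 to -0.51). Cbx6 was lower under all 3 ways of counting, but its call and its place as the lowest of the 9 held only for the reads assigned to it alone.

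The polyhomeotic genes were described next, because they code for the subunits through which complexes cluster. Phc1 was the most abundant of the 9 genes, with 4773 control reads and 2875 HTL reads. Its log2 ratio of -0.55 (-0.61 to -0.48) was 1.46-fold lower and passed on p alone (exact binomial test, adjusted p = 1.02e-57). Phc2, the paralogue known for the clustering of Polycomb bodies, had 321 reads in both libraries and a log2 ratio of 0.19 (-0.042 to 0.41; exact binomial test, adjusted p = 0.159). For Phc3, with 148 and 152 reads, the log2 ratio was 0.22 (-0.11 to 0.56; exact binomial test, adjusted p = 0.258). A single Phc gene, the one with most of the family's RNA, was therefore lower. That gene, Phc1, did not pass on p with edgeR's exact test at an assumed biological coefficient of variation of 0.1. The intervals of Phc2 and Phc3 held 0 with library totals. Under TMM scaling both left out 0, with Phc2 at 0.31 (0.088 to 0.54; exact binomial test, adjusted p = 0.0128) and Phc3 at 0.35 (0.018 to 0.69; adjusted p = 0.0638), and neither passed.

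The RING genes code for the ubiquitin ligases of the complex and moved in opposite directions. Ring1, with 66 control reads and 23 HTL reads, was called lower by 2.49-fold. Its log2 ratio was -1.32 with a wide interval of -2.09 to -0.63 (exact binomial test, adjusted p = 0.000197). Rnf2, also called RING1B and the main ligase of embryonic cells, had 735 and 1006. Its log2 ratio of 0.64 (0.50 to 0.78) was 1.56-fold higher and passed on p (exact binomial test, adjusted p = 5.02e-19) but not on the ratio. Rnf2 did not pass on p with edgeR's exact test at an assumed biological coefficient of variation of 0.1. By its ratio Rnf2 stood at percentile 89.2 of all genes and Ring1 at percentile 6.88. The call of Ring1 rested on the fewest HTL reads of the 9 genes. It was lost with the ratio of FPKM + 1, at -0.89, and with edgeR's exact test at an assumed biological coefficient of variation of 0.1 (adjusted p = 0.00661).

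**Figure D1:**
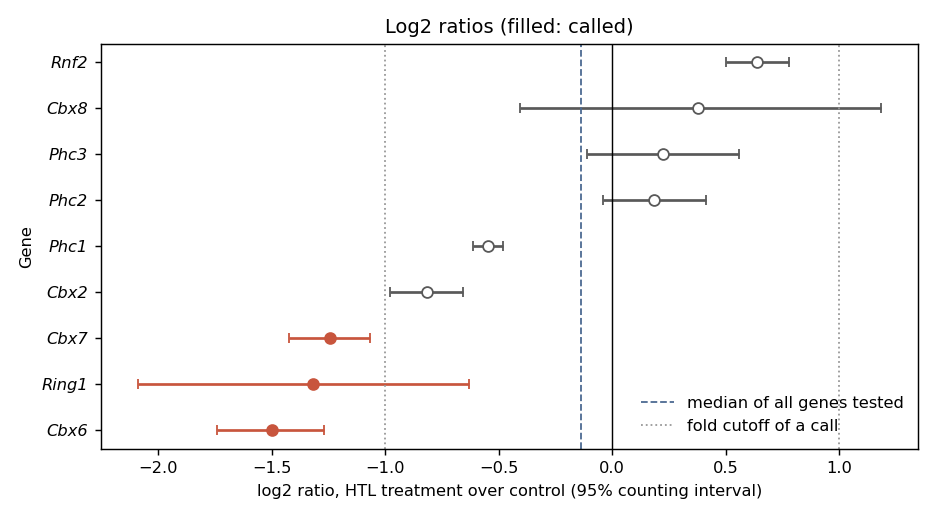
Log2 ratio of HTL treatment to control for the 9 genes (horizontal axis), with 95% counting intervals as bars; 1 library per condition. Filled circles at -1.50, -1.32 and -1.24 mark Cbx6, Ring1 and Cbx7, the genes called lower, and the dashed line is the median of all genes at -0.14.

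Levels of different genes were compared in FPKM as deposited, which are read numbers scaled to transcript length and library size. Among control levels Phc1 was highest at 120.66 FPKM, followed by Cbx7 at 31.14, Cbx2 at 24.51 and Rnf2 at 23.33. Phc2 at 11.96 and Cbx6 at 11.11 came next, and Ring1 at 3.12, Cbx8 at 1.86 and Phc3 at 1.28 were lowest. The 95% counting intervals overlapped for the neighbours Cbx2 and Rnf2, Phc2 and Cbx6, Ring1 and Cbx8, and Cbx8 and Phc3. An overlap does not show that the levels were equal. In the HTL library Phc1 was again highest, at 82.72 FPKM, and Rnf2 came next at 36.23. Cbx2 at 13.88, Phc2 at 13.40 and Cbx7 at 13.13 followed with overlapping intervals between neighbours, then Cbx6 at 3.91, Cbx8 at 2.43, Phc3 at 1.49 and Ring1 at 1.23. Among these last 4, each overlapped its neighbour. Rnf2, whose interval overlapped that of Cbx2 in the control, was thus clearly the second highest in the HTL library. Ring1, above Phc3 in the control, had an interval that overlapped that of Phc3 in the HTL library.

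**Figure D2:**
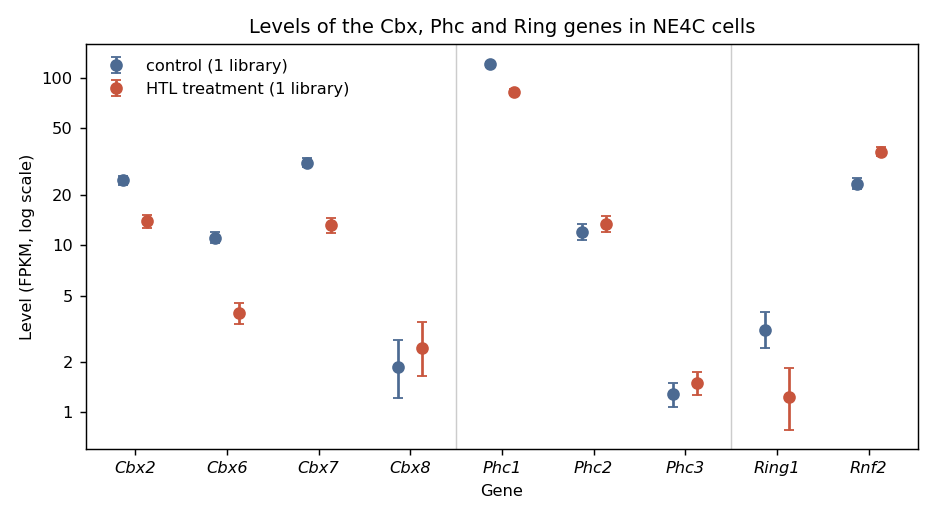
Level in FPKM (log axis) of each gene in the control library (blue) and the HTL treatment library (red), with 95% counting intervals as bars; the genes are grouped as Cbx, Phc and Ring. Phc1 is highest in both libraries at 120.66 and 82.72 FPKM, and Cbx7 drops from 31.14 to 13.13 while Rnf2 goes from 23.33 to 36.23.

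Ratios between genes of 1 family were then taken within each library, since these do not depend on how the libraries are scaled to each other. For Rnf2 against Ring1 the log2 difference was 1.97 (95% interval 1.25 to 2.74), a 3.92-fold shift toward Rnf2. In FPKM the ratio of Rnf2 to Ring1 went from 7.48 to 29.5. Phc2 and Phc3 shifted against Phc1 by 0.73 (0.49 to 0.97) and 0.77 (0.43 to 1.11) on the log2 scale, and the interval for Phc3 against Phc2 held 0, from -0.37 to 0.45. Among chromobox genes, Cbx2 shifted against Cbx6 by 0.68 (0.40 to 0.97) and against Cbx7 by 0.43 (0.18 to 0.67). With Npcd reads added to Cbx6, Cbx2 differed from it by 0.17 (-0.064 to 0.40), and with Nptxr reads as well by -0.15 (-0.37 to 0.068), so the order of Cbx2 and Cbx6 depended on these reads. The difference of Cbx7 and Cbx6 was 0.26 with an interval from -0.040 to 0.56 that held 0, and with Npcd reads added it was -0.26 (-0.50 to -0.011), of the other sign. Of the 10 pairs within families, 8 had intervals that left out 0. Cbx8, in spite of its few reads, shifted against Cbx7 by 1.63 (0.81 to 2.45) and against Cbx6 by 1.88 (1.05 to 2.72). The last difference was 1.37 (0.56 to 2.19) with Npcd reads added to Cbx6 and 1.05 (0.24 to 1.87) with Nptxr reads as well.

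The same shifts are seen in the make-up of each family, given as shares of summed FPKM. Among Cbx2, Cbx6, Cbx7 and Cbx8, the share of Cbx7 was 45.4% in the control and 39.4% in the HTL library, and that of Cbx2 was 35.7% and 41.6%. Cbx7 led Cbx2 in the control, whereas the counting intervals of the 2 overlapped in the HTL library. Cbx6 made up 16.2% and 11.7% of the 4, and Cbx8 2.71% and 7.29%. These shares count Cbx6 without Npcd reads, on which its shifts against Cbx2 and Cbx7 depended. Ring1 made up 11.8% of the RING genes in the control and 3.28% in the HTL library. Phc1 remained the main Phc gene in both, at 90.1% and 84.7%.

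**Figure D3:**
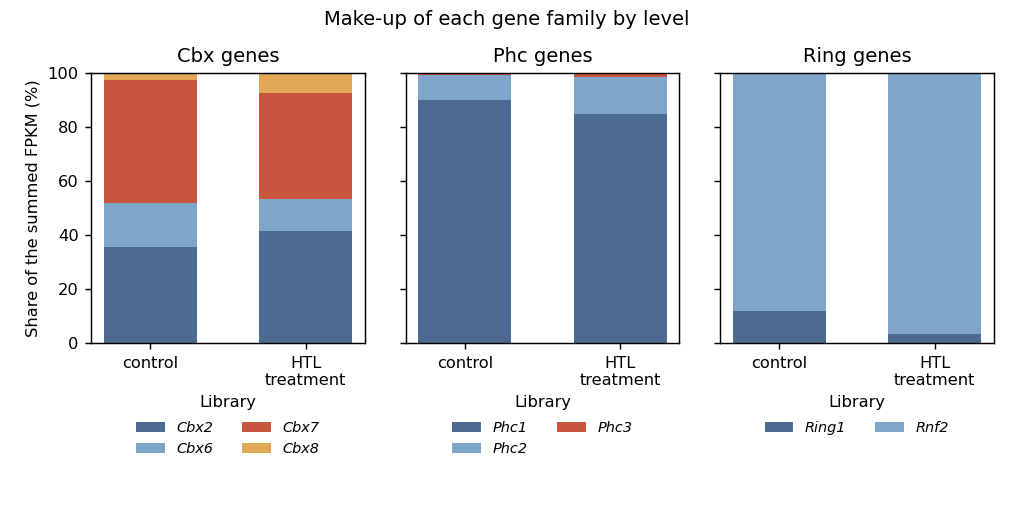
Share of each gene in the summed FPKM of its family (vertical axis, percent) in the control and HTL treatment libraries. Cbx7 goes from 45.4% to 39.4% of the 4 Cbx genes, Ring1 from 11.8% to 3.28% of the Ring genes, and Phc1 stays the main Phc gene at 90.1% and 84.7%.

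Summed over each family, the 4 Cbx genes went from 68.62 to 33.35 FPKM, the 3 Phc genes from 133.9 to 97.61 and the 2 Ring genes from 26.45 to 37.46. The sum of these 4 Cbx genes was 2.59 times the sum of the RING genes in the control library and 0.890 times in the HTL library. The polyhomeotic sum was 5.06 times the RING sum in the control and 2.61 times in the HTL library. The sums of these 4 Cbx genes and of the Phc genes were therefore lower relative to the RING sum, which was carried by Rnf2. The Phc sum was mostly Phc1, and Phc2 and Phc3 had log2 ratios of 0.19 and 0.22. Cbx6 entered with its own reads only, and no interval was computed for the sums.

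Several of the genes lie close together. In mm9, Cbx2 (chr11:118884276-118892584, plus strand) and Cbx8 (chr11:118897619-118902283, minus strand) are 5.03 kb apart. These neighbours had log2 ratios of -0.82 and 0.38, and the difference between them was 1.20 (0.39 to 2.02). Cbx6 and Cbx7 (chr15:79746237-79801549, minus strand) lie 81.1 kb apart and were both called lower on the reads assigned to each, though the call of Cbx6 was lost with Npcd reads added. The other genes lie alone, Phc1 at chr6:122267749-122290579, Phc2 at chr4:128331982-128430125, Phc3 at chr3:30798217-30868337, Ring1 at chr17:34157737-34161625 and Rnf2 at chr1:153316536-153347953.

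Log2 ratios over all genes also varied with transcript length. Of 10 bins of genes by length, the shortest had a median of 0.14 and the longest a median of -0.38. In the bins of Cbx6, Cbx7 and Ring1 the medians were -0.28, -0.17 and -0.11, and in that of Rnf2 it was -0.17. The part of transcript length in these differences was not tested. Scaling the libraries by TMM, which centres the ratios on most genes, raised every log2 ratio by about 0.13 and moved the median of all genes to -0.0076. The calls over all genes were then 552 higher and 800 lower, against 378 higher and 1072 lower with library totals. Relative to the median gene, Cbx6 stood at -1.36, Ring1 at -1.18, Cbx7 at -1.10, Cbx2 at -0.68, Phc1 at -0.41 and Rnf2 at 0.78. The 3 calls and the direction of all 9 genes were the same under all 3 other scalings (TMM, upper quartile and median of ratios). The call of Ring1 was close to the cutoff of 0.001 under TMM (exact binomial test, adjusted p = 0.000975) and median of ratios (adjusted p = 0.000985).

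The partners of these genes were examined by lists, as counts of genes called or passing on p. Over all genes tested, 14.5% were higher and 24.1% lower on p, beside the 2.81% called higher and 7.98% called lower. Of the 6 Pcgf genes, which code for the partner of the RING protein, Bmi1 was called lower, from 90 and 34 reads, at a log2 ratio of -1.21 (-1.83 to -0.63; exact binomial test, adjusted p = 3.98e-05). None of the 6 was called higher, 4 passed on p and all 4 were lower, and the median was -0.79 against -0.14 for all genes. Pcgf2, which takes the place of Bmi1 in many embryonic cells, had 1467 and 790 reads, a log2 ratio of -0.71. Pcgf5 was the only member with a positive ratio, 0.62, and did not pass (exact binomial test, adjusted p = 0.0104). Of 6 genes for other proteins with SAM or MBT domains, which are not all subunits of canonical PRC1, 5 could be tested and L3mbtl3 was called lower at -1.23, with 348 and 130 reads. The highest ratio of that list was that of Sfmbt2, 0.24, with 77 and 80 reads, the list median was 0.19, and on p none was higher and 1 lower.

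None of the 21 genes of variant PRC1, the form without Polycomb chromobox and polyhomeotic subunits, was called, 7 were higher and 9 lower on p alone, and the median was -0.17. Its extremes were Hdac1, a histone deacetylase, at 0.60 and Kdm2b, which brings the complex to CpG islands, at -0.99. Kdm2b exons overlap genes on the opposite strand. Of 11 PRC2 genes tested, 2 were higher and 6 lower on p. Ezh1, the methyltransferase more abundant in non-dividing cells, was called lower at -1.84 with 330 and 81 reads, and the median was -0.33. The largest positive ratio there was that of Phf19, 0.46 (exact binomial test, adjusted p = 0.00123). Of 10 H2A deubiquitylases and cofactors, which remove the mark that PRC1 places, 1 was higher and 6 lower on p. Asxl3 was called lower at -2.52 with 94 and 14 reads and Usp21 at -1.02 with 262 and 113 reads, and the median was -0.54. The highest ratio there was 0.28, for Foxk2, which shares 26 exonic bases with Narf. The call of Usp21 was lost under TMM scaling, where its log2 ratio was -0.90. The 3 HP1 genes Cbx1, Cbx3 and Cbx5, chromodomain genes outside the Polycomb group of which the first pair also counts as variant PRC1, had log2 ratios of -0.23, -0.95 and -0.88, none called, with a median of -0.88. On p all 3 were lower.

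Genes that Polycomb complexes are known to silence were counted last. Of 47 genes listed, 25 had enough reads to be tested, 4 were called higher and 2 lower, against 2.81% and 7.98% of all genes. On p alone the counts were also 4 higher and 2 lower, against 14.5% and 24.1% of all genes. The median log2 ratio was -0.08 against -0.14 for all genes. Under TMM scaling that median was 0.05, of the other sign. The 4 higher were the transcription factor genes Gata2 with 22 and 75 reads (log2 ratio 1.93), Hoxb9 with 68 and 192 (1.68), Gata4 with 27 and 75 (1.64) and Gata3 with 72 and 147 (1.21). The 2 lower were Lhx2 with 76 and 25 reads (-1.40) and T, also called Brachyury, with 188 and 80 (-1.04). The call of T was lost under TMM scaling, at -0.91. Exons of Gata3 overlap 2 other genes, 1 of them on the opposite strand. The other 19 of the 25 were not called.

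**Figure D4:**
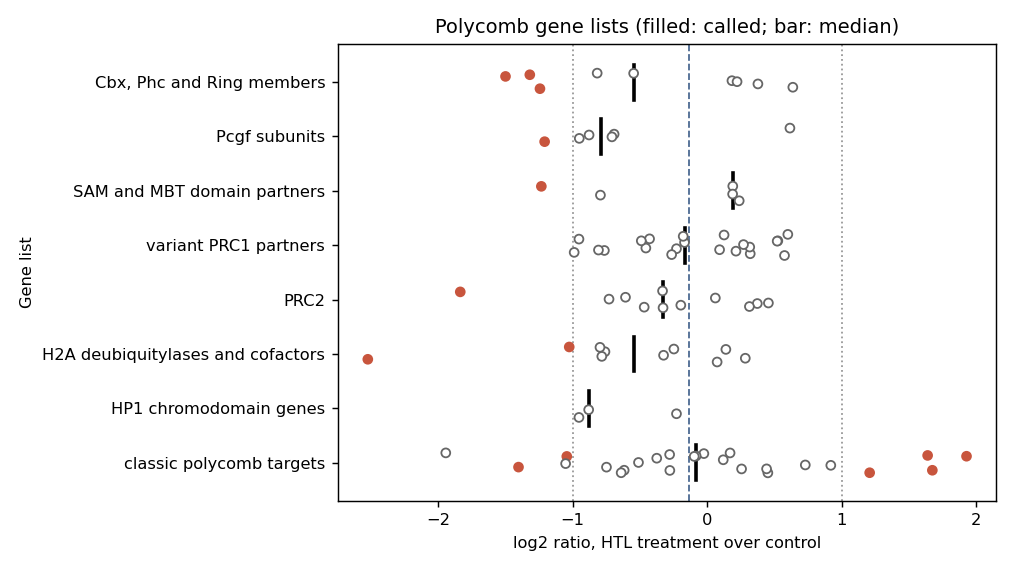
Log2 ratio of HTL treatment to control (horizontal axis) for every tested gene of each Polycomb list, with called genes filled and the list median as a bar; dotted lines mark the cutoffs at -1 and 1 and the dashed line the median of all genes at -0.14. The filled points to the right of 1 are the 4 classic targets Gata3, Gata4, Hoxb9 and Gata2, and each other list has filled points on the left only or none.

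The labelled cell type was checked against its markers. Of 10 neural stem cell markers, 9 were at 1 FPKM or more in the control and 8 with HTL, with Nes at 25.14 and 24.08 FPKM and Sox2 at 34.74 and 12.57. Fabp7, a radial glia marker, had 2 reads in each. The pluripotency gene Pou5f1 was listed at 1870.45 and 2114.41 FPKM and Nanog at 23.77 and 14.75, genes that the neural stem cell label does not imply. Processed copies of Pou5f1 could share its reads, which was not examined, so its level is uncertain. Summed marker levels were 209.77 and 151.09 FPKM for neural stem cells and 20.4 and 27.91 for neurons. The members of these lists did not move together. Among neural stem cell markers Vim was at 78.54 and 38.84 FPKM, whereas Prom1 was at 11.9 and 18.28 and Notch1 at 1.24 and 2.63. The neuron sum was mostly Tubb3, at 16.34 and 24.79, whereas Dcx was at 0.93 and 0.34 and Map2 at 1.88 and 1.28. The astrocyte, oligodendrocyte, fibroblast and microglia markers summed to less than 5 FPKM each in both libraries. The part of these marker differences in the values of the PRC1 genes was not tested.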

How the data were processed

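Total RNA of 1 control and 1 HTL-treated NE4C culture was prepared with the TruSeq kit of Illumina and sequenced on BGISEQ. The authors deposited 1 table with RSEM estimated counts, FPKM scaled to transcript length and library size, and the transcript length in bases. The submitters' processing notes name the mouse build mm9. The mapper, versions and use of strand are not given in the sources used here. The deposited log2 ratio, p-value and FDR hold the authors' own comparison and were not used.

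Estimated counts were rounded, since 21.8% and 20.2% were fractional. Genes whose reads summed to at least 10 over the 2 libraries were tested with the two-sided exact conditional binomial test (scipy 1.17.1) and Benjamini-Hochberg adjustment. For log2 ratios 0.5 read was added, and 95% intervals were exact (Clopper-Pearson for ratios, Poisson for FPKM). They cover counting error only, since no molecular identifiers tell copies of a molecule apart. A count of 0 would allow 3 reads, or 0.290 CPM in the control and 0.330 in the HTL library. The alternatives used edgeR 4.0.16 and DESeq2 1.42.0 under R 4.3.3. The quasi-likelihood test of edgeR could not be fitted without replicates. Gene spans and exon overlaps came from the mm9 reference annotation. The code was tested on simulated data. The genes named were the 9 and, from each list every called gene and, for a direction with no call, the highest or lowest ratio. The rule also held a further gene, which is not reported here, nor are the alternatives that use it. Pcgf2, Fabp7, Cbx5, Npcd and Nptxr and the markers printed were named outside this rule after their values were seen. Members and lists were chosen with earlier results of these data known.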

Additional observations from a re-analysis of the deposited data

How the results depend on the processing

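No paired analysis was possible because only 1 library stood for either condition. The median log2 ratio of the 9 genes was -0.42 with TMM scaling and -0.41 with median of ratios scaling, and its other alternatives moved it by less than 0.1. The number of genes called was 816 with the ratio of FPKM + 1, 5195 without a cutoff on the ratio, 287 when the cutoff was an absolute log2 ratio of 2, and 120 and 6 with edgeR's exact test at an assumed biological coefficient of variation of 0.2 and 0.4. Without the cutoff 6 of the 9 genes were called, with Cbx2 at -0.82, Phc1 at -0.55 and Rnf2 at 0.64 added. Cbx2, Phc1 and Rnf2 did not pass on p with edgeR's exact test at an assumed coefficient of variation of 0.1 or 0.2. At that cutoff of 2, and at a coefficient of variation of 0.2 or 0.4, 0 of the 9 were called and Cbx6 stayed at -1.50, Ring1 at -1.32 and Cbx7 at -1.24. At 0.2 their adjusted p by edgeR's exact test were 0.0176, 0.166 and 0.0629. Ring1 also lost its call at 0.1 (adjusted p 0.00661 by that exact test) and with FPKM + 1, where its log2 ratio was -0.89, and a mean of at least 50 reads left it untested. Some alternatives were chosen after seeing the data: with Npcd reads added Cbx6 was at -0.99, and with Nptxr as well at -0.66, and with FPKM in place of reads no pair difference moved. The pair differences with Cbx6 moved with the added reads: with Npcd, Cbx7 minus Cbx6 changed sign to -0.26, and with Nptxr as well it was -0.58 and Cbx2 minus Cbx6 was -0.15. No other result on the 9 genes changed sign under any alternative run. Of the log2 ratios recomputed for these genes, 101 kept their side of the threshold, 13 lost a call and 3 gained one. An uncalled gene that lost only its pass on p was counted as having kept its side. The wide intervals of Cbx8 and Ring1 are set by their few reads. With no replicate, the spread between cultures is unknown.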
